A study of Mus musculus with 23 samples.

Results

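Nr4a1 and Nr4a2, members of the NR4A group of orphan nuclear receptors, were examined in mouse embryonic stem (ES) cells that had been given an activating form of the transcription factor SRF. The members were chosen by annotation: every probe set assigned to the symbol Nr4a1 or Nr4a2 was taken, which gave 3 probe sets of 2 genes among 12436 non-control probe sets. Nr4a1 was represented by 1 probe set (102371_at) and Nr4a2 by 2 (92248_at and 92249_g_at). The pair of genes was proposed with their levels in these groups in view, around the question whether they are low in the -/- lines and restored by SRF-VP16, so the comparisons behind that question are described without a p-value. All 3 probe sets passed the filter on low values.

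Total RNA was measured on 23 arrays, taken 72 hours after plasmid transfection. The cells were E14wt, which is wild type, E99, written +/- in the titles of its vector arrays and -/+ in those of its other arrays, and 2 lines labelled -/-, E81 and E100. Each line received SRF-VP16, its control SRFdM-VP16, or the vector, which gave 12 groups with 2 arrays each, except E100 with vector, which had 1. VP16 is a strong viral activation domain, and fused to SRF it makes a factor that activates SRF target genes without an upstream signal. Which gene +/- and -/- refer to is not in the labels, nor are the promoter of the plasmids, the share of cells transfected, or whether a line is 1 clone. Nothing says that the arrays of a group came from separate cultures, so the spread behind each p-value may be technical.

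NR4A proteins carry the DNA-binding and ligand-binding domains of nuclear receptors, but their ligand pocket is filled by bulky side chains, and they are regulated mainly through their own transcription. Nr4a1 (Nur77, NGFI-B) and Nr4a2 (Nurr1) are immediate-early genes: cyclic AMP, calcium and growth factors induce them within minutes to hours through factors such as CREB and MEF2. The proteins bind the NBRE element as monomers, and Nr4a1 and Nr4a2 also bind DNA as heterodimers with the retinoid X receptor. Nr4a1 is best known from T cells, adrenal cells and metabolic tissues, and Nr4a2 from midbrain dopamine neurons. The third gene of the group, Nr4a3, had no probe set annotated to it alone, so it was not analysed here.

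The stretches of 250 bases before the transcription start are shown because immediate-early genes are controlled in large part from there; they come from RefSeq (GRCm38.p6), and both genes were matched by symbol. For Nr4a1 this is chr15:101266596-101266845 on the + strand, and for Nr4a2 chr2:57124004-57124253 on the - strand. Both are 5′ to 3′ on the gene's strand. Capitals mark the CRE half-site CGTCA, read on either strand, in both genes, a near match to the SRF-binding CArG box in Nr4a1, and a match to the MEF2 motif in Nr4a2.
Nr4a1: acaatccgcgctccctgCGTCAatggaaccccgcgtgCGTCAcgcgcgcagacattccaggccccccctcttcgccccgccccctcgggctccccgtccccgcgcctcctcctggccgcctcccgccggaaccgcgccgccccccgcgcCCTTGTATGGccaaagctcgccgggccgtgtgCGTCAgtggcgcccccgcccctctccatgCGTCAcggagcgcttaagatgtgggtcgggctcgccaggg
Nr4a2: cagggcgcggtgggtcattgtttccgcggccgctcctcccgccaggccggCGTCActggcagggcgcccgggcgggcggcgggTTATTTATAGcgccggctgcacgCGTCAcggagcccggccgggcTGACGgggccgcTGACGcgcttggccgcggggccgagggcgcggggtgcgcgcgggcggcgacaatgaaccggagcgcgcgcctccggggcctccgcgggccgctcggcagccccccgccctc

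Each promoter held 4 copies of the CRE half-site, the core of the element bound by CREB. At least 1 copy was found in 17.8% of the 32851 promoter windows of the same length, and at least 4 copies in 0.137%. In Nr4a1 the copies began 233, 213, 69 and 40 bases before the start. In Nr4a2 they began 200, 144, 123 and 111 bases before it. The full palindrome TGACGTCA was in neither window and in 1.55% of all windows. No perfect CArG box, the SRF element, was found in either window, against 1.47% of all windows. A CArG box with 1 mismatch in its A/T core lay 101 to 92 bases before the Nr4a1 start, and such a match was in 7.24% of windows. The MEF2 motif lay 167 to 158 bases before the Nr4a2 start and was in 2.92% of windows. An EGR motif (GCGTGGGCG or GCGGGGGCG) lay 60 to 52 bases before the Nr4a1 start, was in 3.06% of windows, and overlapped an SP1 box (GGGCGG) at 55 to 50. SP1 boxes numbered 3 in Nr4a1 and 4 in Nr4a2, 2 of the latter overlapping each other, and occurred in 32.7% of windows. The AP-1 motif TGANTCA (6.75% of windows) and the receptors' own NBRE motif AAAGGTCA (1.34%) were in neither. All motifs were searched on both strands. The 2 windows were rich in G and C, 74.4% for Nr4a1 and 80.0% for Nr4a2, against a median of 52.4%. A match here is a description of letters and not a measured site.

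The values are linear intensities as deposited, used without further scaling between arrays. Array medians ran from 53.5 to 207, and 23.5% to 43.6% of an array's values were at or below 0. Before the log2 was taken, values under 58, the 40th percentile of the whole table, were set to 58. A change on the log2 scale is therefore understated for probe sets near that floor. Arrays at the floor share the same value, so the SE and p-value of such a probe set can be too small. Precision is limited by how many arrays there were. Of 14 ES-cell markers on the array, 12 lay above the floor in every array, and their summed intensity ran from 41142 to 119707. Fibroblast markers were above the floor in every array for 2 of 12 genes and summed to 904 to 2196. Neural markers were above it for 2 of 14, with Map2 at the floor in all arrays. The array of E81 with SRFdM-VP16, replicate 1, stood apart, with the lowest median, the largest share of values at or below 0 and a median correlation of 0.878 with the others. Its log2 ratio of 5′ to 3′ Gapdh signal, a measure of array quality, was also the lowest of the 23 arrays, at -0.93, with 0.47 the highest. The 2 wild-type control arrays numbered 2 also stood apart in smooth-muscle markers, which summed to 26625 and 29223 against 8621 and 8213 in those numbered 1.

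Nr4a1 was read by 1 probe set and lay well above the floor. Its intensity was above the floor on all 23 arrays, from 485 to 1621 with a median of 925, and lay between percentiles 68.6 and 84.1 of its array. In wild-type cells the intensity of Nr4a1 was 1567.1 and 951 with vector, 1529 and 649 with SRFdM-VP16, and 777 and 1116 with SRF-VP16. In each group the arrays differed from each other by more than the means of the plasmids did. In E99 the values were 517 and 1059 with vector, 485 and 849 with SRFdM-VP16, and 925 and 656 with SRF-VP16. These overlapped the wild-type arrays, although 2 of the 4 E99 control arrays were the lowest of the whole set.

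In E81, Nr4a1 read 910 and 1177 with vector, 1039 and 639 with SRFdM-VP16, and 782 and 1137 with SRF-VP16. The 3 plasmids overlapped one another in this line. In E100 it read 1256 with vector, 1621 and 1166 with SRFdM-VP16, and 886 and 584 with SRF-VP16. Here both SRF-VP16 arrays lay below all 3 control arrays. E100 with SRFdM-VP16 therefore had the highest group mean, 1393.5 ± 322 (SD, n = 2), and E99 with SRFdM-VP16 the lowest, 667 ± 257 (SD, n = 2), a ratio of 2.09. When the 12 group means were put in order, all 11 steps between neighbours were smaller than the pooled SD within groups, 332.

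**Figure D1:**
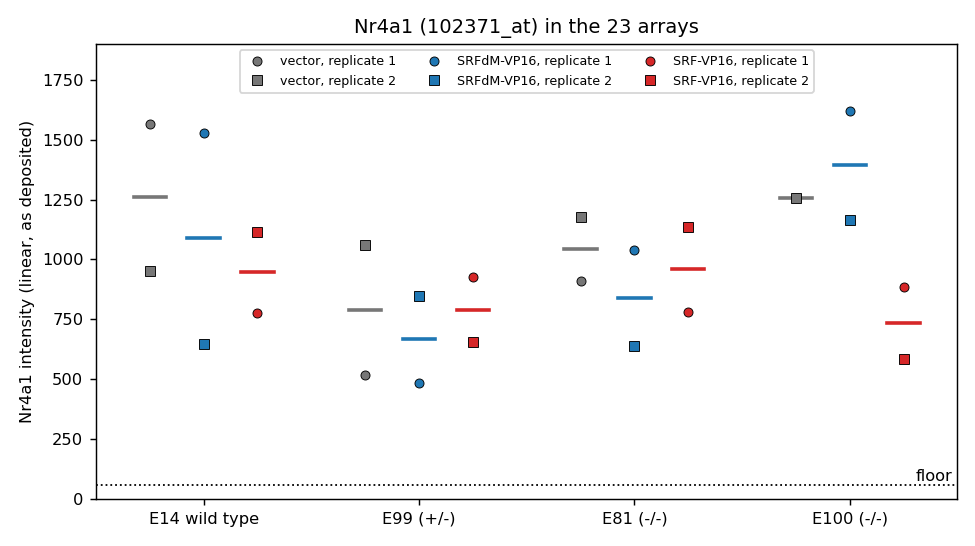
Intensity of Nr4a1 (linear, as deposited) on each array, by line and plasmid; points are arrays, circles for replicate 1 and squares for replicate 2, bars are group means and the dotted line is the floor of 58. All points lie above the floor, and the SRF-VP16 points overlap the control points in wild type, E99 and E81 but lie below them in E100.

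Nr4a2 was near or under the floor. The probe set 92248_at exceeded the floor on 6 of 23 arrays. In wild type it read 135.1 and 90 with vector, -129 and 49 with SRFdM-VP16, and 48 and -31 with SRF-VP16. In E99 it read 43 and 65, then -109 and -148, then 63 and 31 with the same plasmids in that order. How the negative values arose is not given in the sources used here.

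In E81 the intensity of 92248_at was 36 and 31 with vector, -227 and -167 with SRFdM-VP16, and -103 and -143 with SRF-VP16. In E100 it was 54 with vector, 47 and 57 with SRFdM-VP16, and 110 and 128 with SRF-VP16. The last pair and the wild-type vector pair were the only groups with both arrays above the floor. Of the 11 steps between ordered group means, 7 were below the pooled SD of 47.0.

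The other Nr4a2 probe set, 92249_g_at, was above the floor on 18 of 23 arrays, with a median of 134. In wild type it read 160.8 and 275 with vector, 80 and 129 with SRFdM-VP16, and 228 and 51 with SRF-VP16. In E99 it read -45 and 141, then 146 and 106, then 134 and 191. The plasmids overlapped in both lines, with the exception that the wild-type SRFdM-VP16 pair lay below the vector pair.

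In E81, 92249_g_at read 83 and 218 with vector, 145 and 40 with SRFdM-VP16, and 55 and -45 with SRF-VP16. In E100 it read 189, then 152 and 130, then 170 and 101. All 11 steps between its ordered group means were below the pooled SD of 77.1. The Nr4a2 probe sets differed in which groups were high: E100 with SRF-VP16 was the highest group mean for 92248_at, at 119 ± 12.7 (SD, n = 2), and stood at 135.5 ± 48.8 (SD, n = 2) for 92249_g_at, below the wild-type vector mean of 218 ± 80.8 (SD, n = 2).

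**Figure D2:**
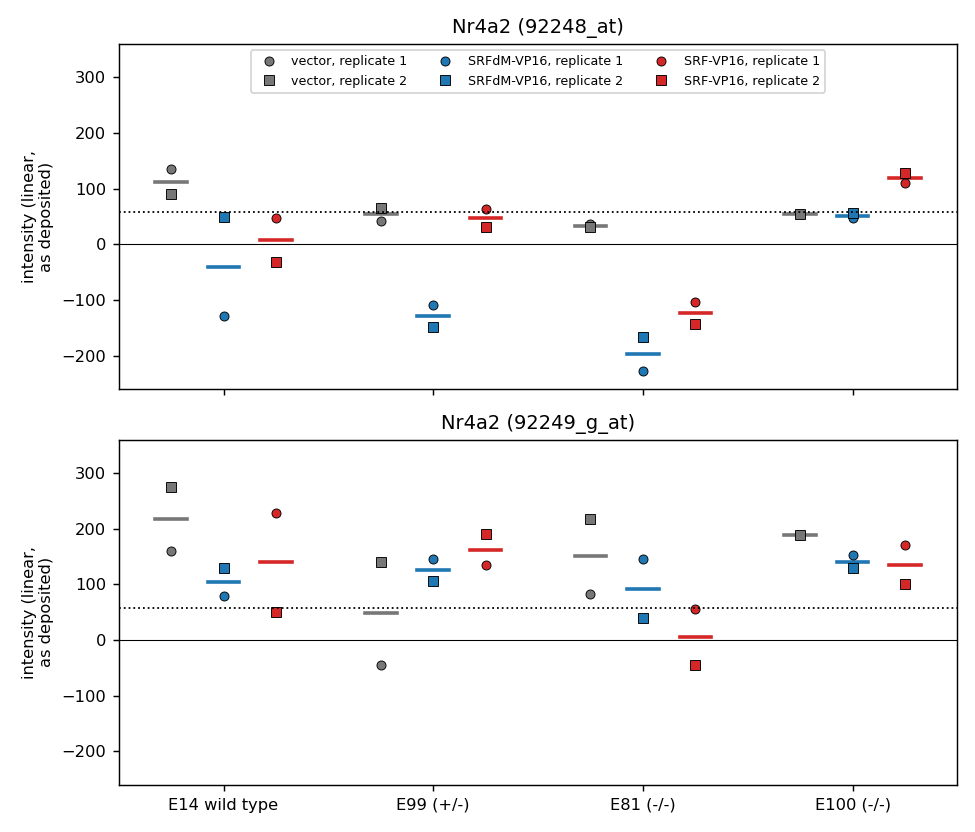
Intensity of the Nr4a2 probe sets 92248_at (upper panel) and 92249_g_at (lower panel) on each array (linear, as deposited), by line and plasmid; circles are replicate 1, squares replicate 2, bars group means and the dotted line the floor of 58. Most 92248_at points lie under the floor, and the lowest are the SRFdM-VP16 arrays of E81 at -227 and -167.

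The low values of 92248_at went with arrays that had many values at or below 0. On 7 arrays 34.1% to 43.6% of all values were at or below 0: 5 with SRFdM-VP16 (wild-type replicate 1 and both arrays of E99 and of E81) and both E81 arrays with SRF-VP16. There 92248_at read -227 to -103, while on the other 16 arrays, with 23.5% to 27.0% of values at or below 0, it read -31 to 135.1. Nr4a1 covered nearly the same range on the 7 arrays, 485 to 1529, as on the 16, 517 to 1621. The part that these array differences had in the 92248_at values was not tested.

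The first question was whether the receptors were low in -/- cells. Nr4a1 stood at 1115 ± 305 (SD, n = 7) in E81 and E100 with the control plasmids and at 1174 ± 449 (SD, n = 4) in wild type with the same plasmids. The difference was -0.0056 ± 0.32 (SE) on the log2 scale, and the arrays overlapped. Of all 9653 probe sets tested, 95.6% had a larger difference in either direction. The means of Nr4a1 differed by less than either SD. Without the 2 wild-type control arrays numbered 2, where Nr4a1 was 951 and 649, the difference was -0.49.

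Nr4a2 gave -0.46 ± 0.10 (SE, log2) for 92248_at and -0.12 ± 0.44 for 92249_g_at in that comparison, and the arrays overlapped for both. The deposited intensities of 92249_g_at were 137 ± 60.5 (SD, n = 7) in the -/- lines and 161 ± 82.8 (SD, n = 4) in wild type. For 92248_at all 7 control arrays of the -/- lines were under the floor, and 2 of the 4 wild-type arrays, both with vector, were above it. Among all probe sets, 8 of 9653 passed the threshold (limma, Benjamini-Hochberg adjusted p below 0.05), a background of 0.0829%.

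The second question was whether SRF-VP16 raised them in -/- cells. Nr4a1 stood at 847 ± 230 (SD, n = 4) with SRF-VP16 and at 1116 ± 405 (SD, n = 4) with SRFdM-VP16 in E81 and E100, a log2 difference of -0.36 ± 0.35 (SE). The arrays overlapped. The lines went in opposite directions: 0.21 in E81 and -0.93 in E100, where the mean intensity with SRF-VP16 was 0.527 of that with SRFdM-VP16. The pooled difference was -0.19 without replicate 1 of E81 with SRFdM-VP16, -0.23 without replicate 1 of E81 with SRF-VP16 and -0.21 without replicate 2 of E100 with SRF-VP16.

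For Nr4a2 the same comparison gave 0.52 ± 0.11 (SE, log2) with 92248_at and -0.38 ± 0.49 with 92249_g_at, and the arrays overlapped for both. The 92249_g_at value was -0.05 without replicate 1 of E81 with SRFdM-VP16, the array that stood apart, and -0.71 without replicate 2. The 92248_at difference came from E100 alone, at 1.03, and it was 0 in E81, where all arrays were at the floor. On the deposited values the E100 difference was at least 2.05-fold, because both SRFdM-VP16 arrays were at the floor. The pooled 92248_at difference was 0.37 with quantile normalization and 0.40 with division by the array median. In E100 the 92249_g_at difference was -0.10. Here 271 of 9653 probe sets passed the threshold, a background of 2.81%, 238 of them higher with SRF-VP16.

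Set against wild-type cells with the control plasmids, the -/- lines with SRF-VP16 were lower for Nr4a1 by the values, 847 ± 230 against 1174 ± 449 (SD, n = 4 each), with a log2 difference of -0.42 ± 0.35 (SE). The difference was 0.05 ± 0.11 for 92248_at and -0.75 ± 0.49 for 92249_g_at. Arrays overlapped for all 3 probe sets. The background of this comparison was 1.75%, 169 of 9653. The Nr4a1 value ran from -0.73 to -0.11 when single arrays were left out, -0.11 without replicate 1 of wild type with SRFdM-VP16 and -0.73 without its replicate 2. It was -0.91 without both wild-type control arrays numbered 2, and 92249_g_at was then at -0.38. These 3 comparisons share arrays with one another.

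SRF-VP16 in wild-type and E99 cells was outside that question, and these contrasts are given with their tests. The genes were proposed with all 12 groups in view, so p-values here and below set a difference against the spread between arrays and are no independent evidence. In wild type Nr4a1 stood at 947 ± 240 with SRF-VP16 and 1089 ± 622 with SRFdM-VP16 (SD, n = 2 each). The log2 difference was -0.10 ± 0.50 (SE; 95% interval -1.17 to 0.98), so folds from 0.444 to 1.97 remained within the interval (limma adjusted p = 1). Nr4a2 gave 0 ± 0.15 for 92248_at and 0.18 ± 0.69 for 92249_g_at. With vector in place of SRFdM-VP16, where both arrays lay above the floor, 92248_at passed at -0.93 (limma adjusted p = 0.0401). That setting called 12 of the 9653 probe sets. Its wild-type arrays with SRF-VP16 were all at the floor, as were those with SRFdM-VP16, which adds no spread to its SE and p-values. Against SRFdM-VP16 none of the 3 member probe sets passed (0 of 3 in limma; 0 at an unadjusted p below 0.05), against 0.0207% of all probe sets, 2 in number.

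In E99, SRF-VP16 against SRFdM-VP16 gave 0.28 ± 0.50 (SE, log2; 95% interval -0.79 to 1.35) for Nr4a1, at 791 ± 190 against 667 ± 257 (SD, n = 2 each). Nr4a2 gave 0.06 ± 0.15 with 92248_at and 0.36 ± 0.69 with 92249_g_at. The deposited values of 92248_at were 31 and 63 against -148 and -109, and 3 of these 4 arrays were under the floor. The SRFdM-VP16 arrays had 38.4% and 34.1% of all values at or below 0, and the SRF-VP16 arrays 25.7% and 25.3%. The part of this in the 92248_at values was not tested. Again 0 of 3 passed in limma and 0 had an unadjusted p below 0.05, against 0.0414% of all probe sets. The difference between the SRF-VP16 effects of E99 and wild type was 0.38 ± 0.70 (SE) for Nr4a1, 0.06 ± 0.22 for 92248_at and 0.18 ± 0.97 for 92249_g_at, with 0 of 3 called by limma, 0 at an unadjusted p below 0.05, and a background of 0.0104%.

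The control plasmid itself was compared with vector over the 4 lines. Nr4a1 stood at 997 ± 420 (SD, n = 8) with SRFdM-VP16 and 1062 ± 326 (SD, n = 7) with vector, a log2 difference of -0.18 ± 0.26 (SE; 95% interval -0.75 to 0.39; limma adjusted p = 0.788). For Nr4a2 the difference was -0.25 ± 0.08 with 92248_at (unadjusted p = 0.00875, limma adjusted p = 0.175) and -0.39 ± 0.36 with 92249_g_at (adjusted p = 0.662). The background was 0.798%, 77 probe sets, of which 74 were lower with SRFdM-VP16, and the median over all probe sets was -0.20. None of the member probe sets was called (0 of 3), and 1 had an unadjusted p below 0.05. Without replicate 2 of wild type with vector, which leaves a single array in that group, 92248_at was at -0.33. Whether 92248_at passed in that fit is not reported here. On most arrays of this comparison 92248_at was at the floor, which adds no spread to its SE and p-value.

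The control arrays of E99, the line labelled +/- or -/+, were set against those of wild type. Nr4a1 was 728 ± 276 in E99 and 1174 ± 449 in wild type (SD, n = 4 each). The log2 difference was -0.68 ± 0.35 (SE; 95% interval -1.44 to 0.08; unadjusted p = 0.0755, limma adjusted p = 1). As a fold it was 0.625, with an interval of 0.369 to 1.06, and 9.46% of all probe sets had a larger difference. The arrays overlapped. The value ran from -0.99 to -0.37 when single arrays were left out, -0.42 without replicate 1 of E99 with vector and -0.37 without replicate 1 of wild type with SRFdM-VP16. It was -1.17 without both wild-type control arrays numbered 2.

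Nr4a2 in that comparison gave -0.42 ± 0.11 for 92248_at (unadjusted p = 0.00191, limma adjusted p = 0.401) and -0.46 ± 0.49 for 92249_g_at (adjusted p = 1). With vector only 92248_at was at -0.84 (adjusted p = 0.0580), and with SRFdM-VP16 only it was 0, since all of those arrays were at the floor. With the same choices 92249_g_at was at -1.22 and 0.29, and leaving out single arrays gave -0.78 to -0.14. Of the 3 probe sets 0 passed and 1 had an unadjusted p below 0.05, against a background of 0.0725%, 7 of 9653. Leaving out replicate 2 of wild type with vector, which leaves a single array in that group, gave -0.57 for 92248_at. Whether 92248_at passed in that fit is not reported here. On most arrays of this comparison 92248_at was at the floor, which adds no spread to its SE and p-values. The E99 and -/- comparisons share the wild-type arrays, so their values are not independent.

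The -/- lines were also compared with each other. Nr4a1 was 941 ± 229 (SD, n = 4) in E81 and 1348 ± 241 (SD, n = 3) in E100 with the control plasmids, a log2 difference of -0.52 ± 0.39 (SE; 95% interval -1.36 to 0.33; limma adjusted p = 0.609). The arrays overlapped at 1 point, the E81 array of 1177 against the E100 array of 1166. For Nr4a2, 92249_g_at gave -0.55 ± 0.54 (adjusted p = 0.698), and 92248_at was at the floor on all 7 arrays. None of the 3 was called (0, and 0 at an unadjusted p below 0.05), against 0.787% of all probe sets, 76 in number and all lower in E81, with a median over all probe sets of -0.27. The control arrays of E81 and E100 are also those of the first question, so these p-values are no independent evidence.

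The SRF-VP16 effect was then compared between E81 and E100. For Nr4a1 the effects of 0.21 and -0.93 differed by 1.15 ± 0.70 on the log2 scale (SE). For 92248_at the difference was -1.03 ± 0.22, and for 92249_g_at -0.56 ± 0.97. These are the arrays of the question on SRF-VP16, so the values are described without a p-value. Over all probe sets the background was 0.155%, 15 in number. Without replicate 1 of E81 with SRFdM-VP16 the 92249_g_at difference was 0.10, and without replicate 2 it was -1.22. The median difference over all probe sets was 0.52, and both E81 plasmid groups in this contrast hold arrays with many values at or below 0, whose part was not tested.

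**Figure D3:**
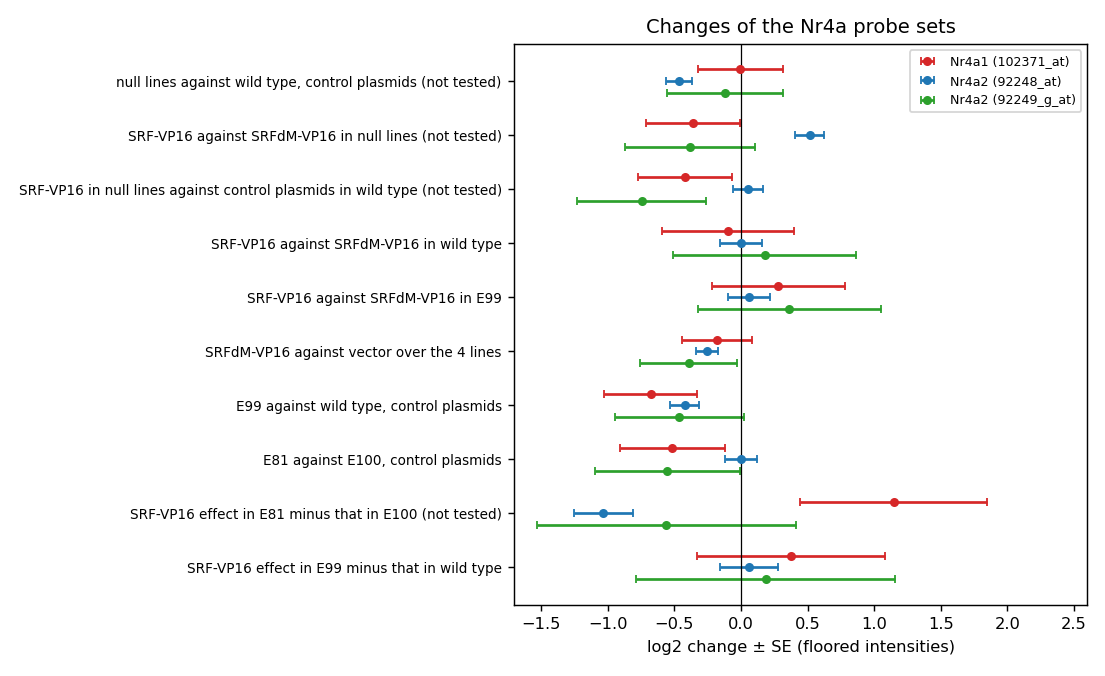
Log2 differences (floored intensities) of the 3 probe sets in the 10 comparisons; points are limma estimates and bars ± 1 SE, red for Nr4a1, blue for 92248_at and green for 92249_g_at. Nr4a1 lies at -0.0056 for the -/- lines against wild type, and the widest split between probe sets is in the SRF-VP16 effect of E81 minus that of E100, at 1.15 for Nr4a1 and -1.03 for 92248_at.

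The other immediate-early genes give the setting for Nr4a1, which belongs to the same class. Of 41 listed genes 33 were measured, and with SRF-VP16 in the -/- lines 5 rose and 1 fell by limma, 27 being higher and 6 lower. Their median log2 difference was 0.79, against 0.05 over 6818 named genes, of which 3.18% were called. Egr1, a zinc-finger factor and textbook SRF target, rose from 243 ± 200 to 16158 ± 6308 (SD, n = 4 each), a log2 difference of 6.11 ± 0.49 (adjusted p = 1.54e-05). Egr2, its relative, rose from 572 ± 96.3 to 7829 ± 2886, a difference of 3.70 ± 0.27 (adjusted p = 6.91e-06).

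On the same arrays Nr4a1 stood at -0.36 and the Nr4a2 probe sets at 0.52 and -0.38. The other 3 risers were Ccn1, a matricellular protein, at 4.54, Dusp2, a MAP kinase phosphatase, at 3.78, and Jun, an AP-1 subunit, at 2.81. They were named after their values were seen, because the count was small. Klf2, a Krüppel-like factor, fell by 2.43 ± 0.35 (adjusted p = 0.00201), a call lost when only the arrays of the comparison were fitted (adjusted p = 0.0779). Fos, an SRF target in serum-stimulated cells, read 67.8 ± 123 and 57.8 ± 118, a difference of -0.12 ± 0.32 (adjusted p = 0.949). With E81 alone 2 of the listed genes rose, with E100 alone 3, and with quantile normalization 8.

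**Figure D4:**
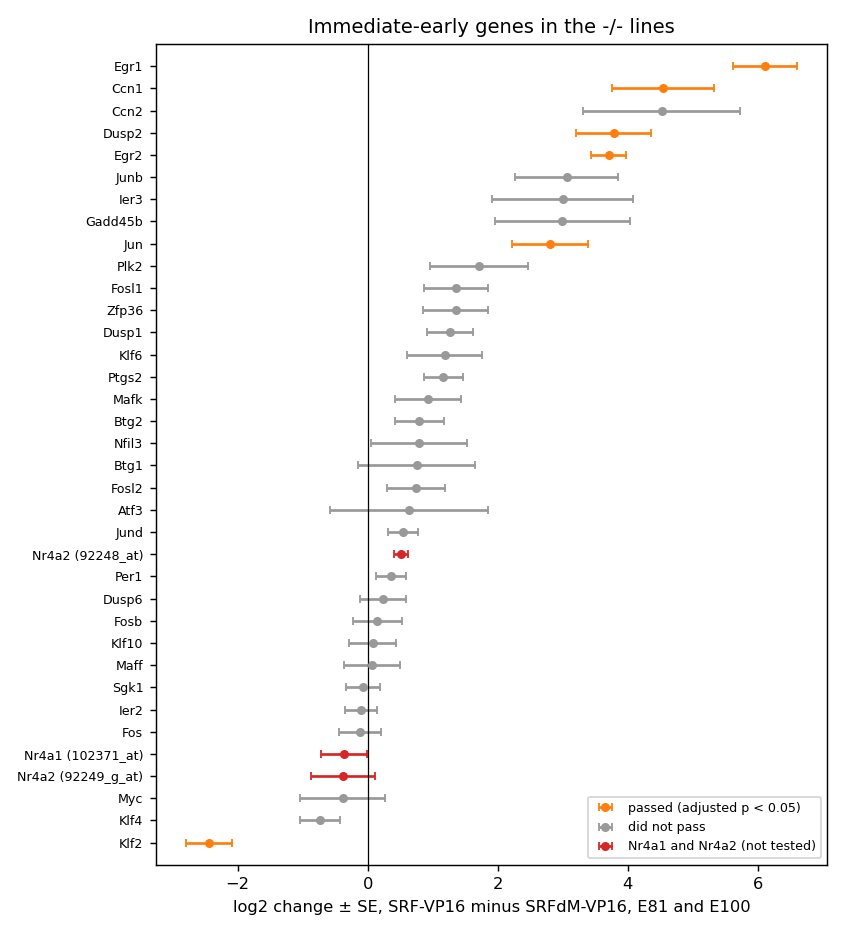
Log2 difference ± 1 SE between SRF-VP16 and SRFdM-VP16 in E81 and E100 for the measured immediate-early genes, in order of size; orange genes passed the threshold, grey ones did not, and red marks the Nr4a probe sets, which were not tested. Egr1 heads the order at 6.11 and Klf2 ends it at -2.43, with Nr4a1 at -0.36.

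Smooth-muscle markers moved with this comparison: their summed intensity was 2513 to 7147 with SRFdM-VP16 and 45931 to 61795 with SRF-VP16 in the -/- lines, with 4 and 5 of 7 above the floor on every array and Myh11 and Smtn at the floor in both. ES-cell markers summed to 59128 to 117344 and 41142 to 70797, with 12 of 14 above the floor on every array in both. Steroidogenic markers summed to 8401 to 19852 and 7071 to 8169 without overlap, with 3 of 7 above the floor on every array and Star, Hsd3b1 and Inha at the floor in both. Single genes weigh heavily in such sums. Nr0b1, which ES cells express, had the widest range of the steroidogenic markers over all arrays, 2589 to 15951, and Nr5a1 ran from 2179 to 4637. The differences of both genes, neither of which passed, are given at the end. Neural markers summed to 2295 to 2925 and 2642 to 5632, with 4 of 14 above the floor on every array and Map2 and Slc6a3 at the floor in both. Nes had the widest range of the neural markers over all arrays, -5 to 3889. The part of any of these in the values of Nr4a1 and Nr4a2 was not tested. In bulk samples fewer cells of a type and less RNA per cell cannot be told apart.

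In the -/- lines against wild type, none of the 33 immediate-early genes was called by limma (0, with 6 at an unadjusted p below 0.05), and their median was -0.05 against 0.09 over all named genes, of which 0.0733% were called. Egr1 differed by -1.72 ± 0.44 (adjusted p = 0.242), at 156 ± 181 (SD, n = 7) against 415 ± 158 (SD, n = 4), and Fos by -0.0055 ± 0.29. Egr1 passed without replicate 2 of E100 with SRFdM-VP16, at -2.07 (adjusted p = 0.00992). Nr4a1 was at -0.0056 there. In wild type SRF-VP16 gave 6.01-fold for Egr1 (adjusted p = 0.942) and in E99 6.20-fold (adjusted p = 0.514), next to 0.935-fold and 1.21-fold for Nr4a1.

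The signalling genes that act on the Nr4a promoters (cyclic AMP, calcium, MEF2 and MAP kinase components) held 27 measured genes of 47 listed. With SRF-VP16 in the -/- lines 0 were called by limma and 2 had an unadjusted p below 0.05, with a median of 0.28, against 3.18% called and a median of 0.05 over all named genes. In the -/- lines against wild type 0 were called and 1 had an unadjusted p below 0.05, with a median of 0.20, against 0.0733% and 0.09. Creb1, the factor of the CRE, differed with SRF-VP16 by 0.48 ± 0.55 (adjusted p = 0.794). Mef2a stood at 148 ± 211 and 411 ± 124, a difference of 1.18 ± 0.62 (adjusted p = 0.458), and Mef2d at 0.28 ± 0.26 (adjusted p = 0.730). Both encode MEF2 factors, whose motif lies in the Nr4a2 window printed above.

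Among the other nuclear receptors, 26 of 46 listed were measured. With SRF-VP16 in the -/- lines 1 rose and 1 fell by limma, 7.69% of them against 3.18% of all named genes, with a median of -0.02 against 0.05. Nr2f6, an orphan receptor of the COUP-TF group, rose from 892 ± 180 to 2942 ± 926 (SD, n = 4 each), 1.69 ± 0.31 on the log2 scale (adjusted p = 0.00959). Nr5a2, an activator of the pluripotency gene Pou5f1, fell from 1603 ± 399 to 704 ± 272, by 1.25 ± 0.27 (adjusted p = 0.0216). The Nr2f6 call was lost with E81 alone, with E100 alone, with division by the array median and with only the arrays of the comparison (adjusted p = 0.0545, 0.174, 0.133 and 0.0748). The Nr5a2 call was lost with E81 alone (adjusted p = 0.430), with vector as the control (0.0625), with only the arrays of the comparison (0.174) and without replicate 1 of E81 with SRFdM-VP16 (adjusted p = 0.0532), replicate 1 of E100 with SRFdM-VP16 (0.0937), replicate 2 of E81 with SRF-VP16 (0.0944) or replicate 2 of E100 with SRF-VP16 (0.0729). In the -/- lines against wild type 0 receptors were called by limma, 2 had an unadjusted p below 0.05 and the median was 0.18, against 0.09 over all named genes.

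Partners and reported targets of NR4A proteins numbered 32 measured of 47 listed. Rxra, the heterodimer partner, stood at 732 ± 162 with SRFdM-VP16 and 611 ± 18.2 with SRF-VP16 in the -/- lines (SD, n = 4 each), a log2 difference of -0.24 ± 0.27 (limma adjusted p = 0.794). Of the list 1 rose and 0 fell, with 4 at an unadjusted p below 0.05 and a median of -0.04. The called share, 3.12%, was near the 3.18% of all named genes, whose median was 0.05, so the count is no result about the list. The gene called was En1, a homeobox factor of midbrain dopamine neurons, at 0.49 ± 0.06 (adjusted p = 0.000999). Its deposited intensities were -142 ± 63.8 and 1.5 ± 135, all SRFdM-VP16 arrays were at the floor, the arrays overlapped, and the call was lost with E81 alone, quantile normalization, a higher floor or no floor. In the -/- lines against wild type 0 were called, 1 had an unadjusted p below 0.05 and the median was 0.22, against 0.09 over all named genes.

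Genes whose 12 group means ran most like those of the receptors were listed by Pearson correlation over 8086 probe sets with 1 symbol, as a description. For Nr4a1 they were Tcf15 (0.95), a bHLH factor of paraxial mesoderm, Il15 (0.93), a cytokine, Rasa3 (0.92), a GTPase-activating protein, Tsc22d1 (0.91) and Xrcc1 (0.90), a DNA repair scaffold. Over the 23 single arrays the correlation with Nr4a1 was 0.81 for Tcf15, 0.50 for Il15, 0.56 for Rasa3, 0.24 for Tsc22d1 and 0.69 for Xrcc1. For 92249_g_at, the brighter Nr4a2 probe set, they were Cd79b (0.90), Zfp574 (0.88), Olfr2 (0.86), Shd (0.86) and Nog (0.86). Over the 23 single arrays the correlation with 92249_g_at was 0.39 for Cd79b, 0.44 for Zfp574, 0.36 for Olfr2, 0.30 for Shd and 0.73 for Nog. The groups share arrays' background and scaling, and Nr4a2 lies close to the floor.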

How the data were processed

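The authors deposited linear intensities, 1 for each probe set on each array. Which software, background correction and scaling made them is not given in the sources used here. Values at or below 0 make up 29.1% of the table. Gene names came from the platform annotation table (10141 probe sets with 1 symbol, 362 with several, 1933 with none). Groups came from sample titles. Of 12502 probe sets, 66 controls were left out and 9653 lying above their array's 40th percentile in at least 2 arrays were kept. Intensities were floored at 58, put on the log2 scale and fitted in limma 3.58.1 (R 4.3.3), with 12 group means over 23 arrays, 11 residual degrees of freedom, an intensity trend and Benjamini-Hochberg adjustment at 0.05 over all probe sets, two-sided. The procedure was tested on simulated data. There were 10 comparisons: 3 were used in proposing the genes, 1 compares the SRF-VP16 effect between the same -/- arrays, and for the members these 4 are described only. Members and lists were chosen with earlier results of these data known.

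Named genes are the receptors, up to 3 called genes per list with the smallest adjusted p in 2 comparisons, the 5 most alike genes per receptor, and Egr1, Fos, Nr5a2, Rxra, Creb1, Mef2a and Mef2d; a gene was represented by its brightest probe set. The alternatives were 37 settings: normalization, floor, filter, control plasmid, line, single arrays left out and the replicate number as a block.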

Additional observations from a re-analysis of the deposited data

How the results depend on the processing

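Nr4a1 in the -/- lines against wild type moved by less than the spread between replicates under 24 of 24 settings, with values on both sides of 0, from -0.49 to 0.30. Its SRF-VP16 difference in the -/- lines was 0.21 with E81 alone and -0.93 with E100 alone. The cause of the changes below was not tested, except that a higher floor or at-floor arrays leave no difference by construction. The number of arrays and the low signal of Nr4a2 limit all of these values.

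For 92248_at in the -/- lines against wild type (-0.46) the values were -0.27 with quantile normalization, 0 with the floor at the 60th percentile (299), -0.64 with the inverse hyperbolic sine, -0.93 with vector only, 0 with SRFdM-VP16 only, -0.61 without both wild-type control arrays numbered 2, and -0.61 to -0.32 without single arrays. For its SRF-VP16 difference in the -/- lines (0.52) they were 0.37, 0 and 0.79 under the first 3 settings, 0 with E81 alone and 1.03 with E100 alone. For SRF-VP16 in the -/- lines against wild-type controls it was -0.75 with the inverse hyperbolic sine, -0.41 with vector only, 0.52 with SRFdM-VP16 only, -0.46 with E81 alone, 0.57 with E100 alone, -0.094 without the wild-type pair, and -0.094 to 0.20 without single arrays; 92249_g_at was 0 with the higher floor.

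In wild type, with vector as the control, 92248_at was -0.93 and passed (limma adjusted p = 0.0401), with 12 probe sets called in all. Both SRF-VP16 arrays were at the floor for 92248_at, which adds no spread to that p-value. With the same control 92249_g_at was -0.87. Against SRFdM-VP16, 92249_g_at was -0.32 with quantile normalization and -0.19 with division by the array median. Without single arrays it ran from -0.81 to 1.17, and Nr4a1 from -0.72 to 0.52. In E99, median division gave -0.32 for Nr4a1 and -0.23 for 92249_g_at, quantile normalization -0.18 for 92249_g_at, vector as the control -0.023 for 92248_at, and single arrays left out -0.12 to 0.68 for Nr4a1. For SRFdM-VP16 against vector, quantile normalization gave 0.048 for Nr4a1 and 0.13 for 92249_g_at, and median division 0.44 and 0.17. There 92248_at passed at -2.40 with the inverse hyperbolic sine (limma adjusted p = 0.0354). It was at -0.33 without the wild-type pair, and ran from -0.33 to -0.18 without single arrays. Such fits leave a single array in a group, so whether 92248_at passed in them is not reported here.

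For E99 against wild type, 92248_at was at -0.57 without the wild-type pair and ran from -0.57 to -0.28 without single arrays. Whether 92248_at passed in these fits is again not reported here. In that comparison 92249_g_at was 0.29 with SRFdM-VP16 only. For E81 against E100, median division gave 0.17 for Nr4a1 and 0.020 for 92249_g_at. The E81 minus E100 effect ran from -1.14 to -0.92 for 92248_at and from -1.22 to 0.10 for 92249_g_at without single arrays. The E99 minus wild-type effect ran from -0.24 to 1.00 for Nr4a1 and from -0.80 to 1.17 for 92249_g_at, which was -0.043 with median division and -0.16 without the wild-type pair.

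The 8 calls over all probe sets in the -/- lines against wild type became 4 with quantile normalization, 4 with median division, 63 with the higher floor, 2 with the inverse hyperbolic sine, 82 with no filter, 4 with no intensity trend, 22 with vector only, 4 with SRFdM-VP16 only, 56 with E100 alone, 23 without the wild-type pair, 50 with only the comparison's arrays, and 4 to 42 without single arrays, 42 without replicate 2 of E81 with SRFdM-VP16; each of the 10 arrays left out moved the count by over 1.5 times. The 271 calls for SRF-VP16 in the -/- lines became 97 with E81 alone, 114 with E100 alone, 113 with only the comparison's arrays, and 196 to 516 without single arrays, 516 without replicate 2 of E81 with SRFdM-VP16. Over the settings the counts of the other comparisons, given in brackets as reported, ran from 39 to 233 (169), 0 to 35 (2), 0 to 28 (4), 1 to 372 (77), 1 to 41 (7), 22 to 370 (76), 1 to 432 (15) and 0 to 20 (1). Leaving out the single E100 vector array leaves no group mean, so it was not run for comparisons that use it.

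Replicate numbers paired the arrays unevenly, and the main fit did not use them. Over 55 pairs of groups the correlation of replicate differences ran from -0.39 to 0.42, with a median of 0.13 and 29 over 0.1. Over the 10 pairs within a line it ran from -0.35 to 0.42, with a median of 0.26 and 6 over 0.1. With the replicate number as a block, Nr4a1 was at 0.0053 for the -/- lines against wild type and -0.36 for SRF-VP16 in the -/- lines, and the calls were 6 and 268. With a replicate block within each line, added after seeing the data, the calls became 7 (8), 245 (271), 93 (169), 1 (2), 0 (4), 2 (77), 1 (7), 102 (76), 6 (15) and 1 (1), with those reported in brackets. Nr4a1 was then at -1.14 for E99 against wild type (adjusted p = 0.935) and -0.96 for E81 against E100 (adjusted p = 0.380).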

Other observations

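Among nuclear receptors not described above, Nr5a1 stood at 3232 ± 1225 with SRFdM-VP16 and 3214 ± 126 with SRF-VP16 in the -/- lines (SD, n = 4 each), a log2 difference of 0.07 ± 0.23 (limma adjusted p = 0.973). Nr0b1 (Dax1), a corepressor that ES cells express, stood at 8747 ± 5489 and 3491 ± 471, a difference of -1.07 ± 0.37 that did not pass (adjusted p = 0.198). Both genes were picked after their values were seen.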
